A study of Mus musculus with 8 samples.

Results

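AP-1 is a family of basic leucine zipper transcription factors, and 10 of its genes were followed here: Fos, Fosb, Fosl1, Fosl2, Jun, Junb, Jund, Atf3, Batf and Maff. They were taken by their symbols, and all 10 were among the 27998 genes of the count tables. AP-1 proteins bind DNA as pairs. A Fos protein needs a Jun protein as its partner, while Jun proteins can also pair with each other or with Atf3 and Batf. Several AP-1 genes, Fos first among them, are immediate early genes: their RNA appears shortly after a stimulus without new protein synthesis and is degraded quickly. In microglia, the macrophages that reside in brain and spinal cord, AP-1 acts beside NF-kB in the response to injury and inflammatory signals.

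The series held 8 single-cell RNA-seq libraries of YFP-sorted microglia from lumbar spinal cord of C57BL/6 mice. All groups carried Cx3cr1-yfp-creER/+, in which the Cx3cr1 locus drives YFP and a tamoxifen-inducible Cre. The 4 control libraries had no further allele in the labels. The 4 A20 cKO libraries were also Tnfaip3 fl/fl, which lets Cre remove A20, an inhibitor of NF-kB signalling. Whether A20 was lost in these cells was not tested. In each genotype 1 library was naive and the others came from days 1, 2 and 3 after bilateral sciatic nerve transection, an injury outside the spinal cord after which its microglia divide. The animals were young adults per the study, whose methods date all experiments from the first dose of tamoxifen. Cx3cr1 is also active in monocytes and in macrophages at the borders of the cord, so the YFP gate alone does not separate them from microglia. Per the study's methods, cords of 3 animals were pooled per library. Each group therefore had 1 library and no replicate, and no test was run between groups. Per the study's methods cords were homogenised and cells sorted before capture. With 1 library per group such handling cannot be told apart from time or genotype, and its part in the AP-1 levels was not tested. Ranges after values are 95% intervals that cover counting error only.

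Kept cells numbered 558 to 3585 per library and 14626 in all, with median depths of 2780 to 4274 UMIs (unique molecular identifiers, 1 per captured RNA molecule). P2ry12, a purinergic receptor gene of microglia, was found in at least 90.1% of the cells of every library, and all genes of the microglial marker list were found in every library. Their summed level was 23570, 22632, 19164 and 17019 UMIs per 1000000 (CPM) in control naive and at days 1, 2 and 3, and 18119, 13071, 11339 and 12858 CPM in A20 cKO. The libraries fell into 2 sets that did not follow the genotypes. Control day 3 and the 4 A20 cKO libraries shared cell barcodes at 6.40 per 1000000 possible pairs of cells, against 1.70 among control naive, day 1 and day 2 and 1.68 between the sets. Mbp, a myelin gene, was found in 18.5% to 41.5% of cells in the first set and in 5.42% to 6.53% in the second. The neutrophil markers S100a8 and S100a9 together were at 18.5 to 32.0 CPM in the first set and without a UMI in the second. The 3 monocyte markers together were at 24.4 to 83.7 CPM in the first set and at 1.85 to 3.70 CPM in the second, most of it Plac8 in the first set, while Ccr2 stayed at 2.36 CPM or less and Ly6c2 at 0.66 CPM or less in all 8 libraries. The part of these markers in the AP-1 levels was not tested. In all, 325 of the 14626 kept cells had a barcode that also occurred in another library. Comparisons of control day 3 with control naive, and of the genotypes when naive and at days 1 and 2, crossed these sets. In those comparisons the set cannot be told apart from the time or genotype. The ratios of members between libraries and the shares of cells with a member were also computed without the cells of shared barcodes.

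The bases upstream of 4 members are shown because Fos, Fosb and Jun spanned wide ranges of levels and Atf3 departed from their pattern. Each sequence is the 250 bases before the RefSeq transcription start on GRCm38.p6, read in the direction of the gene. Capitals mark matches on either strand to TGACGTCA (the cAMP response element), TGANTCA (the AP-1 site), TGACNTCA, TGACGT, the TATA box letters TATAAA or the serum response CArG box. TGACGTCA is contained in TGACNTCA and contains TGACGT. The search for TGACNTCA, for TGACGT and for the TATA box letters was chosen after the sequences had been seen.
Fos: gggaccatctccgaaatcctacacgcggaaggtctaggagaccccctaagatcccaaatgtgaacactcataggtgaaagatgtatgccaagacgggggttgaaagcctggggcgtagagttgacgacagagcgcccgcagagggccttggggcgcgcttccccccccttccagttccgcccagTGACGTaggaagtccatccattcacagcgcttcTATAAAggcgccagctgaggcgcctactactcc
Fosb: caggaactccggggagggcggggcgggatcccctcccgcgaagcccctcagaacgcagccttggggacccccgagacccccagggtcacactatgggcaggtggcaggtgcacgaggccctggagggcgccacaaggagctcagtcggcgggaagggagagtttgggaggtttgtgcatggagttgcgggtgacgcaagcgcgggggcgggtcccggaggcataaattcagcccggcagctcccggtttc
Jun: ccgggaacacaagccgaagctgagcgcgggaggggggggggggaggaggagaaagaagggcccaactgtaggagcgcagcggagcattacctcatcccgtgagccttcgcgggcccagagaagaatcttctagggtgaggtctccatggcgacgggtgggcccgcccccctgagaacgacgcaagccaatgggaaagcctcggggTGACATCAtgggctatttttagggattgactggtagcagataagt
Atf3: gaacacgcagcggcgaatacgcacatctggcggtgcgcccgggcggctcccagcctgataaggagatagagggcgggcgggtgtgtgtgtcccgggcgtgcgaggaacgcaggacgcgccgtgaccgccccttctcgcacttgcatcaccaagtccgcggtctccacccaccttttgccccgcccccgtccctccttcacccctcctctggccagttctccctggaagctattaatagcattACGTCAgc

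The Fos sequence lies at chr12:85473640-85473889 on the plus strand, directly before the Fos gene. The others are on the minus strand, Fosb at chr7:19310046-19310295, Jun at chr4:95052223-95052472 and Atf3 at chr1:191183334-191183583. The Atf3 window lay within the annotated gene, chr1:191170296-191218039, so it precedes a RefSeq start inside the gene and not its outermost start. The Fos window held TGACGT at 66 to 61 bases before the start and TATAAA at 33 to 28 bases, and the Jun window held TGACATCA at 45 to 38 bases. The Atf3 window held TGACGT on the opposite strand at 8 to 3 bases, and the Fosb window held none of these letters. Over the same length, TGACGT occurred in 6.47% of the 32851 RefSeq promoters, TGACNTCA in 7.49%, TATAAA in 12.4%, TGACGTCA in 1.55%, TGANTCA in 6.75% and the CArG box in 1.47%. Of the 10 members, 9 matched a RefSeq promoter by symbol. For Junb and Jund the bases after its start did not match a transcript of the gene, so these windows may miss the promoter. The Jund window ended at chr8:70697738 and the gene starts at 70698949. Among those not printed, Batf held TGACGT, and of the 3 Maff promoters 1 held TGACGTCA and another TGACATCA. A match describes letters and not a site in use. Bases further upstream than these windows were not searched. The absence of a CArG box match in the Fos window thus does not show that Fos lacks this box.

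Fos, whose protein dimerises with Jun proteins, covered a wider range of levels than Jun, Junb, Jund or Atf3. In the control libraries its summed UMIs were 20.4 CPM when naive, 4105 CPM at day 1, 186 CPM at day 2 and 301 CPM at day 3. In the A20 cKO libraries they were 508, 13.2, 21.1 and 504 CPM at the same times. Control day 1 thus stood highest, and A20 cKO naive and day 3 were next and lay within counting error of each other. Control naive, A20 cKO day 1 and A20 cKO day 2 were lowest, and neighbours among these 3 were not apart beyond counting error. The ends of that order, A20 cKO days 1 and 2 with 40 and 64 UMIs, were not compared with each other, so the 3 need not be level. From naive to day 1 Fos was thus higher in control and lower in A20 cKO, while from day 2 to day 3 it was higher in both genotypes.

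Fosb, a close relative of Fos that is also an immediate early gene, was high and low in the same libraries. Its level was 3.70, 554, 24.4 and 119.9 CPM in control naive, day 1, day 2 and day 3. The A20 cKO libraries held 110.2, 1.65, 5.93 and 88.1 CPM, of which 1.65 CPM rested on 5 UMIs. Fosb was found at 39.8 UMIs per 100 Fos UMIs in control day 3 (36.8 to 43.1), against 13.5 in control day 1 (13.2 to 13.8) and 13.1 in control day 2 (11.8 to 14.6). A20 cKO naive had 21.7 and A20 cKO day 3 had 17.5 Fosb UMIs per 100 Fos UMIs. The balance of these Fos genes in control day 3 thus lay outside the counting intervals of the other libraries with at least 100 Fosb UMIs.

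The Jun genes encode the partners that Fos proteins require. Jun itself was at 338, 5124, 625 and 944 CPM in control naive and at days 1, 2 and 3, and at 1527, 177, 184 and 1001 CPM in A20 cKO. Jund, often described as the more constitutive Jun gene, was at 287, 2385, 315 and 381 CPM in control and at 500.4, 112, 126 and 315 CPM in A20 cKO. In A20 cKO days 1 and 2 both genes lay under their control naive levels. Junb, which can act against Jun, was at 460.4, 3206, 509 and 706 CPM in control and at 927, 484, 406 and 868 CPM in A20 cKO. Junb at A20 cKO day 1, unlike Jun and Jund there, lay within counting error of control naive.

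Atf3, a stress-induced family member that can pair with Jun, was high in 1 library. It was at 22.8 CPM in control naive, 370.2 at day 1, 16.8 at day 2 and 18.8 at day 3. The A20 cKO libraries held 28.6, 18.2, 14.2 and 38.6 CPM in the same order. A20 cKO naive, where Fos was at 508 CPM, was not apart from control naive in Atf3. The ratio of Atf3 to Fos UMIs was 5.63 to 9.05 per 100 in the 5 libraries with Fos above 100 CPM and 67.2 to 137.5 per 100 in the other libraries.

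**Figure D1:**
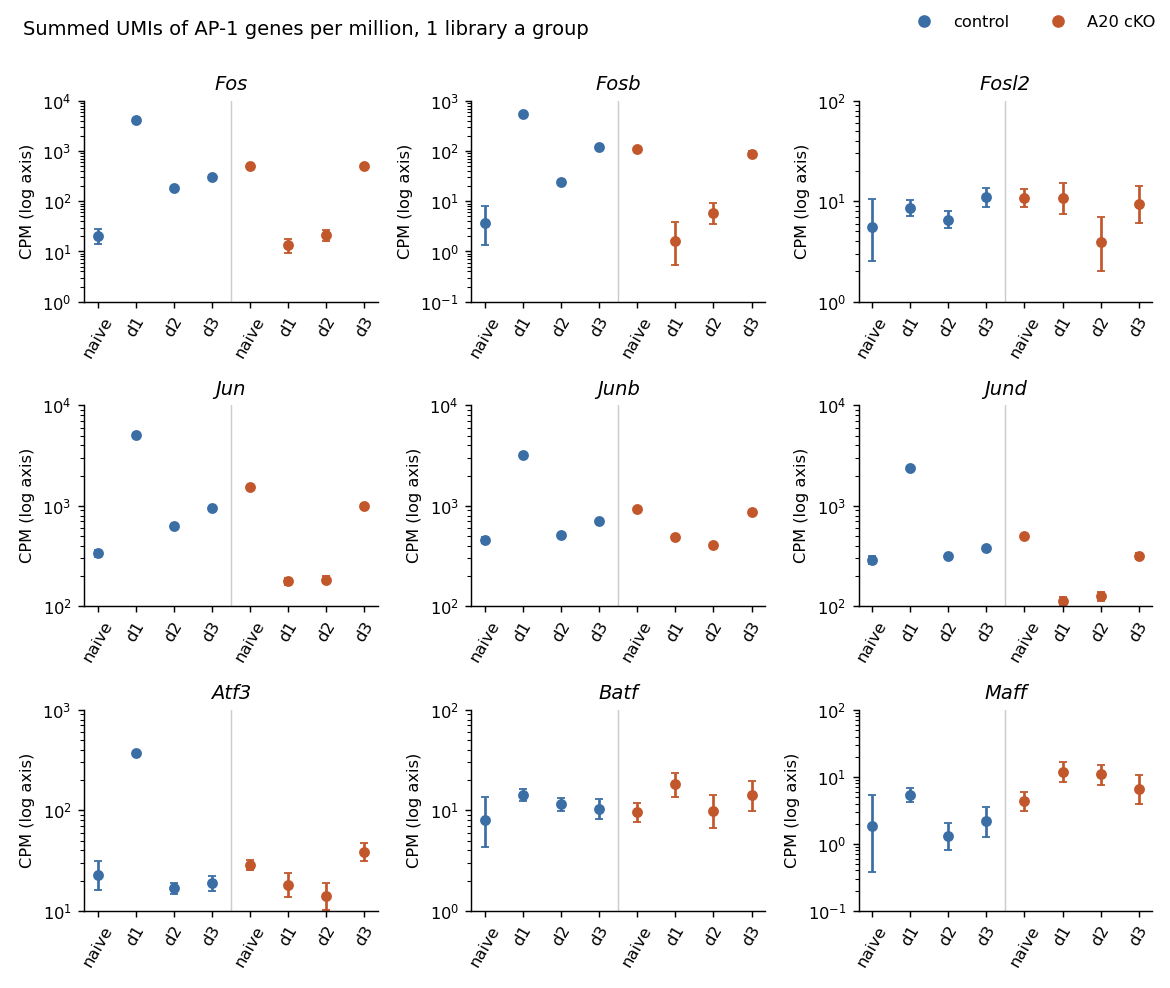
Summed UMIs per 1000000 (CPM, log axes that differ between panels) of 9 AP-1 genes in the 8 libraries, control in blue and A20 cKO in orange, with exact Poisson 95% intervals. Fos, Fosb, Jun, Junb, Jund and Atf3 are highest in control day 1, and Fos reaches 508 CPM in A20 cKO naive while Atf3 is at 28.6 CPM there.

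The other members were scarce. Fosl2, a Fos relative with a more lasting expression, ranged from 3.96 to 10.98 CPM over the 8 libraries. Batf, a family member without a transactivation domain that is best known from lymphocytes, ranged from 8.02 to 18.2 CPM. Their highest level was 2.78 times the lowest for Fosl2 and 2.26 times for Batf, against 311 times for Fos. Maff, a small Maf protein that lacks a transactivation domain, was at 1.85, 5.41, 1.33 and 2.20 CPM in control and at 4.37, 11.9, 10.9 and 6.69 CPM in A20 cKO. Its highest levels, in A20 cKO days 1 and 2, rested on 36 and 33 UMIs, and neighbours in the order from A20 cKO day 1 down to A20 cKO naive were not apart beyond counting error. Fosl1 had 3 UMIs in all 8 libraries together and none in 6 of them, so its level was not detectable at this depth. A count of 0 allowed between 0.336 and 1.85 CPM in those 6 libraries. In bulk sums such as these, fewer cells with a transcript and less transcript per cell cannot be told apart, and shares of cells are given further on.

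In control day 1 against naive, 6 of the 8 members with at least 100 UMIs over both sums together were at least 2-fold higher and none lower. Of all genes with that many UMIs, 3.82% were at least 2-fold higher and 7.25% at least 2-fold lower. The log2 ratio was 7.63 for Fos (7.17 to 8.19), 7.11 for Fosb (6.10 to 8.67). Jun had 3.92, Jund 3.05 (2.92 to 3.19) and Junb 2.80 (2.70 to 2.91). On a linear scale Fos was 199-fold, Atf3 16.0-fold and Jun 15.2-fold higher, with an interval of 3.55 to 4.53 on the log2 scale for Atf3. The naive sums behind these ratios were small for some members, with 33 UMIs of Fos, 37 of Atf3 and 6 of Fosb. Fosl2, at 0.56, and Batf, at 0.77, stayed under 2-fold, and the interval of Fosl2 included 0. The median log2 ratio of the tested members was 3.49, against -0.13 over all genes tested.

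At day 2 in control the difference from naive remained for the Fos genes. Of 8 members tested 2 were at least 2-fold higher, Fos with a log2 ratio of 3.17 (2.70 to 3.73) and Fosb with 2.61 (1.59 to 4.18), and none was lower. Over all genes 5.92% were higher and 6.28% lower by that measure. Jun had 0.89 (0.76 to 1.02) and passed 2-fold relative to the median gene, while Junb at 0.14 and Jund at 0.13 were close to naive. Atf3, with -0.46 (-0.94 to 0.10), was not apart from naive.

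At day 3 in control 3 of 6 members tested were at least 2-fold higher and none lower, beside 8.76% and 2.32% of all genes. Fosb led with a log2 ratio of 4.90 (3.89 to 6.47), followed by Fos with 3.87 (3.39 to 4.43) and Jun with 1.48 (1.36 to 1.61). Junb was at 0.62, Jund at 0.41 and Atf3 at -0.29 (-0.81 to 0.28). This comparison crossed the sets of libraries described above.

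In A20 cKO the direction at days 1 and 2 was the opposite. At day 1 against A20 cKO naive, 4 of 8 members tested were at least 2-fold lower and none higher, beside 1.39% of all genes lower and 1.56% higher. The log2 ratio was -5.92 for Fosb (-7.69 to -4.83), -5.25 for Fos (-5.75 to -4.82), -3.10 for Jun (-3.23 to -2.98) and -2.15 for Jund (-2.32 to -2.00). Those of Fosb and Fos rested on 5 and 40 UMIs at day 1 and were -7.68 and -6.11 without the cells of shared barcodes, and -4.76 and -4.13 with all deposited barcodes. Junb was 1.91-fold lower and stayed just under the threshold. Atf3 had -0.64 (-1.10 to -0.23) and Batf, in the other direction, 0.92 (0.40 to 1.42). Both libraries belonged to the same set by shared barcodes.

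At A20 cKO day 2 against naive, 6 of 8 members tested were at least 2-fold lower and none higher, beside 2.65% of all genes lower and 2.86% higher. The 6 were Fos at -4.58, Fosb at -4.18, Jun at -3.05, Jund at -1.99, Fosl2 at -1.39 (-2.45 to -0.57) and Junb at -1.19. Fosl2 rested on 12 UMIs at day 2. Atf3 was 2.00-fold lower and narrowly missed the threshold. With the mean of cell CPM Fos was at -3.76. Maff, with fewer than 100 UMIs over both sums together, was higher than in A20 cKO naive at day 1, with a log2 ratio of 1.44 (0.75 to 2.13), and at day 2, with 1.32 (0.60 to 2.02).

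At A20 cKO day 3 none of the 8 members tested was 2-fold away from A20 cKO naive, beside 1.92% of all genes higher and 2% lower. Fos was back at the naive level, with a log2 ratio of -0.01 (-0.10 to 0.08). Jun at -0.61 (-0.67 to -0.55) and Jund at -0.67 (-0.78 to -0.56) were lower than when naive, and Junb at -0.10 was nearly level. The 3 days of a genotype share their naive library, so their ratios are not independent of each other.

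**Figure D2:**
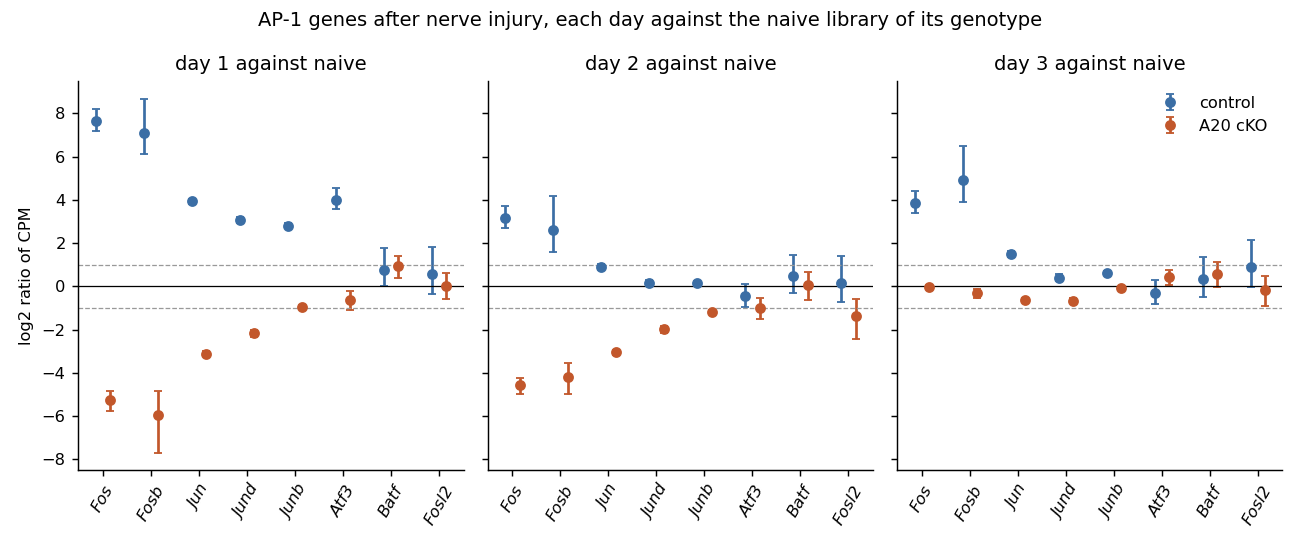
Log2 ratio of CPM at days 1, 2 and 3 against the naive library of the same genotype for the 8 members with at least 100 UMIs over both sums together in most comparisons, with exact conditional 95% intervals and dashed lines at 2-fold. At day 1 Fos stands at 7.63 in control and at -5.25 in A20 cKO, while at day 3 it stands at 3.87 and -0.01.

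The genotypes differed before any injury. A20 cKO naive had 4 of 7 members tested at least 2-fold higher than control naive and none lower, beside 7.43% and 2.22% of all genes. Fosb had a log2 ratio of 4.78 (3.77 to 6.35), Fos 4.62 (4.15 to 5.18), Jun 2.18 (2.05 to 2.30) and Junb was 2.01-fold higher (0.90 to 1.12 on the log2 scale). Junb went under 2-fold relative to the median gene, with the mean of cell CPM and without the cells of shared barcodes, which left 3 members. Jund at 0.80 (0.66 to 0.94) and Atf3 at 0.31 (-0.18 to 0.86) were under 2-fold. These libraries were of different sets, in which Mbp was found in 18.5% and 6.34% of cells and the monocyte markers were at 34.5 and 3.70 CPM, and the part of those differences in the result was not tested. Against control day 3, an injured library of its own set, A20 cKO naive had none of 8 members at least 2-fold higher or lower, beside 0.964% and 1.49% of all genes. Fos was at 0.75 (0.68 to 0.83) and Jun at 0.69 (0.65 to 0.74) there, and Fosb at -0.12 (-0.26 to 0.01) was not apart.

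At day 1 the genotypes stood furthest apart. In A20 cKO against control 6 of 9 members tested were at least 2-fold lower and 1 was higher, beside 3.25% and 15.5% of all genes. Fos was 307-fold lower (-8.77 to -7.83 on the log2 scale) and Fosb 305-fold lower (-10.01 to -7.17), from 40 and 5 UMIs in A20 cKO. On the log2 scale these ratios of -8.26 and -8.25 were -9.13 and -10.02 without the cells of shared barcodes, and -7.13 and -7.08 with all deposited barcodes. Jun was 28.9-fold, Jund 21.2-fold, Atf3 20.2-fold and Junb 6.62-fold lower. The member that was higher was Maff, with a log2 ratio of 1.15 (0.52 to 1.73). The median of all genes in this comparison was 0.20, and relative to it Maff was at 0.95, under the threshold. In the other 10 comparisons the median of all genes lay between -0.13 and 0.07.

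At day 2 A20 cKO had 4 of 8 members tested at least 2-fold lower than control and none higher, beside 4.66% and 10.7% of all genes. They were Fos at -3.13 (-3.52 to -2.78), Fosb at -2.00 (-2.81 to -1.36), Jun at -1.77 and Jund at -1.32, and Junb was at -0.32. With the mean of cell CPM Fos was at -2.29. At day 3, within 1 set of libraries, 1 of 8 members was at least 2-fold higher and none lower, beside 1.86% and 2.4% of all genes. That member was Atf3, at 1.04 (0.65 to 1.42), while Fos was at 0.74 (0.64 to 0.84), Jun at 0.08 (0.02 to 0.15) and Fosb at -0.44 (-0.66 to -0.23). The Atf3 value rested on 98 and 137 UMIs and went under 2-fold without the cells of shared barcodes and with a stricter cell filter.

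For shares of cells, each cell was thinned to 2000 UMIs so that depth did not differ, and shallower cells were left out (20 to 310 per library). In control day 1, 98.3% of 3225 cells had a Fos UMI (97.8 to 98.7), against 3.59% of the 502 naive control cells (2.14 to 5.61). The shares were 25.1% at day 2 and 31.7% at day 3. In A20 cKO they were 39.1% when naive, 1.08% at day 1, 3.19% at day 2 and 30.3% at day 3. Without thinning the shares ran from 4.93%, 99.7%, 40.2% and 41.3% in control to 44.97%, 2.71%, 6.45% and 43.5% in A20 cKO. Fos was therefore found in nearly all cells of 1 library and in a minority of the cells of each other one. No cell type in these libraries should lack Fos, so no background share from free RNA can be given. The lowest share seen, 1.08%, is an upper limit for it in that library.

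The number of Fos UMIs per cell also differed. In control day 1 the median thinned cell had 7 Fos UMIs and 9 Jun UMIs, and 66.4% of cells had at least 5 Fos UMIs (64.8 to 68.1). That class held 6.13% of cells in A20 cKO day 3, 5.55% in A20 cKO naive, 2.18% in control day 3, and 0.489% of the cells of control day 2. No such cell was found among 502 in control naive, 830 in A20 cKO day 1 and 626 in A20 cKO day 2, which allows shares of up to 0.598%, 0.361% and 0.479%.

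**Figure D3:**
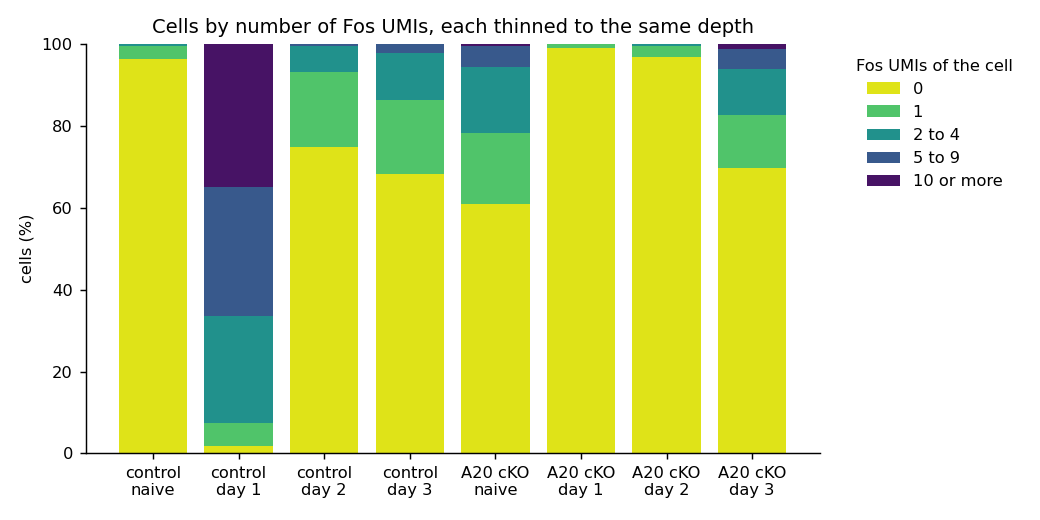
Share of cells (%) by the number of Fos UMIs in the cell, after thinning each cell to 2000 UMIs, in the 8 libraries. Cells without a Fos UMI are 1.71% of control day 1, 60.9% of A20 cKO naive and 98.9% of A20 cKO day 1.

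Jun, Junb and Jund were found in more cells than Fos where Fos was low. Jun UMIs were in 44.4% of thinned cells in control naive, 99.7% at day 1, 64.0% at day 2 and 66.2% at day 3. In A20 cKO they were in 74.1%, 25.8%, 25.4% and 52.8%. For Junb the shares ran from 46.8% in A20 cKO day 2 to 97.7% in control day 1, and for Jund from 19.6% in A20 cKO day 1 to 95.9% in control day 1. Fosb was in 55.5% of cells in control day 1, 17.0% in control day 3 and 13.5% in A20 cKO naive, and in none of 830 thinned cells in A20 cKO day 1, which allows up to 0.361% of cells with a UMI at that depth. Without thinning 3 of the 886 cells of A20 cKO day 1 held Fosb. Atf3 was in 45.7% of cells in control day 1 and in 2.40% to 5.17% in every other library. Cells with none of the 10 members were absent from control day 1, made up 13.9% of control naive and reached 31.6% in A20 cKO day 2.

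Fos, Jun, Junb and Jund together were found in 92.0% of cells in control day 1, 19.0% in A20 cKO naive, 12.2% in control day 3, 11.3% in A20 cKO day 3 and 6.44% in control day 2. In the remaining libraries the share was at most 0.598%. In A20 cKO naive, 86.9% of the 1022 cells with Fos also had Jun, against 65.8% of the 1590 cells without Fos. For Fosb the shares were 26.2% and 5.28%, for Junb 79.2% and 62.1%, and for Jund 62.2% and 42.8%. Atf3 was in 5.48% of cells with Fos and in 4.97% without. In A20 cKO naive, cells with Fos thus held Fosb, Jun, Junb and Jund more often than cells without it, while the shares with Atf3 were close. In control day 1 the shares with Atf3 were not close, at 46.1% of the 3170 cells with Fos and 23.6% of the 55 without.

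In A20 cKO naive the same contrast held across classes of cells by Fos UMIs, while in control day 1 Atf3 rose with the class. In A20 cKO naive the summed level of Jun was 1001 CPM in cells with no Fos UMI, 1661 with 1 UMI, 2719 with 2 to 4 and 4045 with 5 to 9. Fosb was at 35.5, 117, 256 and 481 CPM, Jund at 356, 501, 855 and 1139 CPM, and Junb at 691, 959.5, 1421 and 1906 CPM. Atf3 was at 25.8, 37.2, 32.1 and 22.6 CPM over these classes. In control day 1, Atf3 was at 127 CPM, from 14 UMIs, in the 55 cells without Fos and at 476 CPM in the 1130 cells with 10 or more Fos UMIs, while Jun was at 3091 and 6915 CPM. Over all cells of control naive Jun was at 338 and Atf3 at 22.8 CPM. Free RNA in control day 1 can add such UMIs to any cell, and its part in the cells without Fos was not tested. The classes were read from the same cells as the other genes, so these values describe cells and test nothing.

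**Figure D4:**
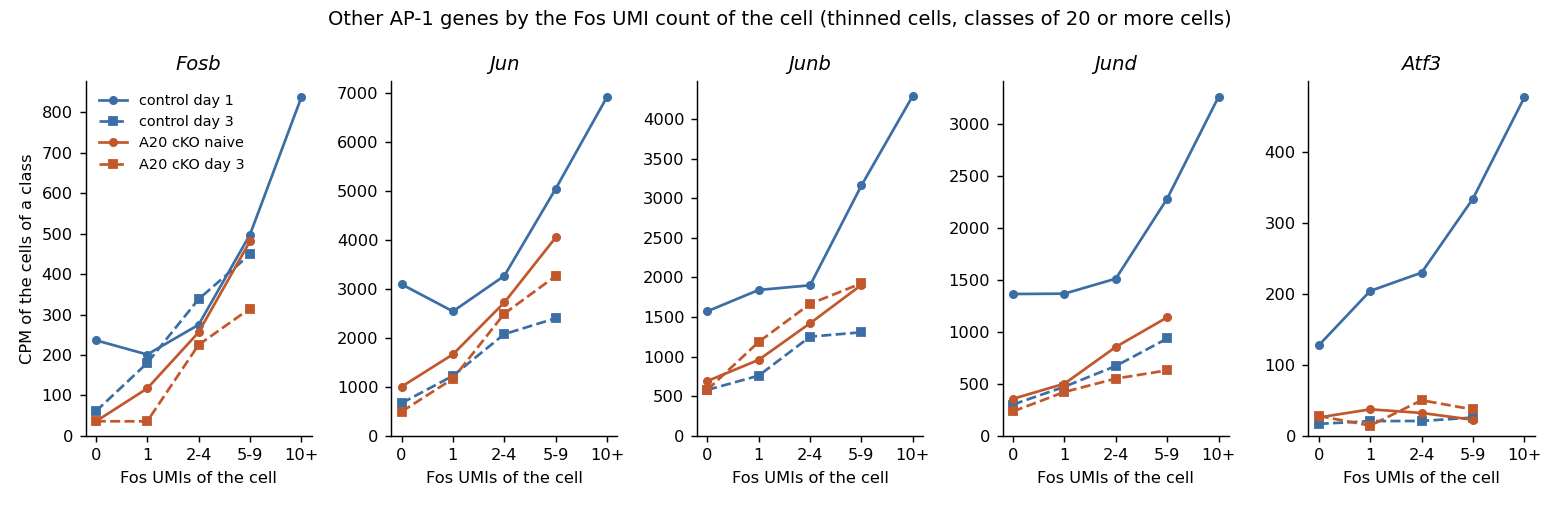
Summed CPM of 5 AP-1 genes in cells grouped by their Fos UMI count, after thinning to 2000 UMIs, in the 4 libraries named in the key. Classes with fewer than 20 cells are not drawn. Jun rises with the Fos class in control day 3, A20 cKO naive and A20 cKO day 3, while Atf3 is at 22.6 CPM in A20 cKO naive cells with 5 to 9 Fos UMIs and at 334 CPM in those of control day 1.

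Over single thinned cells, Pearson correlations with Fos (natural log of UMIs plus 1) were described in libraries with many Fos cells. Among 5103 genes in control day 1, over 3225 cells, the highest were Jun at 0.57, Junb and Klf2 at 0.50, Dusp1 and Btg2 at 0.49, Jund at 0.46, H3f3b at 0.41 and Fosb at 0.38. Among 5704 genes in A20 cKO naive, over 2612 cells, Jun at 0.46 again led, followed by Fosb at 0.40, Btg2 and Klf2 at 0.38, Junb at 0.33, and Jund, Ier2 and Dusp1 at 0.32. Klf2, a Krüppel-like factor, and Btg2, an antiproliferative gene, are early-response genes, and Dusp1 is a phosphatase that switches off MAP kinases. Atf3 had a correlation of 0.21 in control day 1 and of 0.01 in A20 cKO naive. The cells of a library share its preparation, and they were thinned to the same depth.

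Across libraries, the genes closest to Fos were sought by the mean absolute difference of log2 CPM, each gene centred on its mean over the 8 libraries. Among 6178 genes these were Fosb at 0.44, Egr1 at 0.53, Dusp1 at 0.84, Adamts1 at 1.08 and Jun at 1.11. For Jun they were Jund at 0.41, Btg2 at 0.45, Klf2 at 0.49, and Hist4h4 and Ier2 at 0.58. Egr1 is an immediate early zinc finger factor, Adamts1 a secreted protease and Ier2 an early-response gene. Junb was at rank 19 for Fos and 11 for Jun, and Atf3 at rank 15 for both. The 8 points share the sets of libraries described above, so the measure is a description.

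The mix of members changed with their sum. All 10 members together made up 1147, 15772, 1696 and 2495 CPM in control naive and days 1 to 3, and 3625, 848, 782 and 2844 CPM in A20 cKO. Fos gave 1.56% to 2.70% of these UMIs in control naive and A20 cKO days 1 and 2, 10.96% to 17.7% in control days 2 and 3 and A20 cKO naive and day 3, and 26.0% in control day 1. Junb gave 57.1% in A20 cKO day 1 and 52.0% in A20 cKO day 2, against 20.3% in control day 1. Where the sum was low, Junb was thus the largest part, and where it was high Jun was, at 32.5% in control day 1 and 42.1% in A20 cKO naive. Jund stood at 53.9 to 74.4 UMIs per 100 Junb UMIs in the 4 control libraries and A20 cKO naive, and at 23.2, 31.1 and 36.3 at A20 cKO days 1, 2 and 3. UMIs are 1 count per molecule and are not scaled by length, and capture can differ between genes.

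Mitotic cells, those in which 3 or more of 19 core G2/M genes had a UMI, numbered at least 30 in 6 libraries and had deeper profiles than other cells. In control day 2 the median depth was 5488 UMIs in mitotic and 3555 in other cells. Levels here are CPM, so a lower level does not mean fewer UMIs per cell, which were not compared. Jund was lower in CPM in mitotic cells in each of the 6 libraries, in A20 cKO day 1 from 6 UMIs in those cells. Its level was 270.4 CPM in the 1129 mitotic cells of control day 2 and 348 CPM in the others, a log2 ratio of -0.36 (-0.45 to -0.28). In the 94 mitotic cells of A20 cKO naive it was 222 CPM against 516 CPM, a ratio of -1.21 (-1.51 to -0.94). Jun and Junb were also lower beyond counting error in control days 2 and 3 and in A20 cKO naive and day 3. Their ratios there ran from -0.09, for Jun in control day 2, to -0.50, for Junb in A20 cKO day 3. In A20 cKO days 1 and 2 Jun was not apart, and Junb was apart at day 1 only, at -0.41 (-0.80 to -0.07). Fos was lower in mitotic cells of A20 cKO naive, at -0.51 (-0.74 to -0.29), and of control day 3, at -0.24 (-0.42 to -0.07). It was not apart in control day 2, at 0.04 (-0.06 to 0.15), or in A20 cKO day 3, at 0.05 (-0.20 to 0.28). In A20 cKO days 1 and 2 the mitotic cells held only 2 and 4 Fos UMIs, with ratios of 0.04 (-3.36 to 1.69) and -2.05 (-4.13 to -0.78). With 5 or more G2/M genes required, Fos in A20 cKO day 3 was at 0.23 (-0.02 to 0.47).

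Other genes of the pathway were read from lists. The mitogen-activated protein kinases, their upstream kinases and the SRF, ELK and MEF2 factors carry signals to the Fos and Jun promoters. Of 22 tested in control day 1 against naive, none was at least 2-fold higher and 2 were lower, Map3k1 at -1.45 and Map2k6 at -1.24, beside 3.82% and 7.25% of all genes, with a median of -0.30. Map3k8, at 0.98 (0.59 to 1.43), narrowly missed the threshold there and passed it relative to the median gene, at 1.11. In A20 cKO day 1 against naive none of 21 was 2-fold away, beside 1.56% of all genes higher and 1.39% lower, with a median of -0.03. Over all 11 comparisons the largest ratio on the list was that of Map3k8, at 2.08 in control day 3 against naive. Map3k8, a kinase released by NF-kB signalling, was at 32.1, 63.9, 45.1 and 137 CPM in control and at 107, 127, 142 and 146 CPM in A20 cKO. It was thus higher in each library of the set with control day 3 than in any of the other set. The activity of the kinases was not measured.

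Other early-response and feedback genes moved with the AP-1 genes. Of 24 tested, 22 were at least 2-fold higher in control day 1 than naive and none lower, beside 3.82% and 7.25% of all genes. Their median log2 ratio was 2.87. Egr2 had no UMI in control naive and was at least 26.5-fold higher, Dusp1 had a ratio of 6.32 (5.89 to 6.83) and Egr1 of 6.14 (5.53 to 6.91). In A20 cKO, 9 of 21 were at least 2-fold lower at day 1 and 12 of 20 at day 2, and none was higher. Of all genes, 1.39% were lower at A20 cKO day 1 and 2.65% at day 2. Egr1 had -4.23 and -4.82 there, Dusp1 -3.79 and -2.59 and Btg2 -2.27 and -2.46. Egr1 was at 11.7, 848, 46.7 and 79.7 CPM in control and at 219, 11.6, 7.58 and 210.1 CPM in A20 cKO, an order of high and low libraries like that of Fos.

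Heat shock genes were also higher in control day 1 than naive. Of 12 tested, 10 were at least 2-fold higher there and none lower, beside 3.82% and 7.25% of all genes. Their median log2 ratio was 1.77. In A20 cKO naive against control naive 6 of 10 were at least 2-fold higher, beside 7.43% of all genes, with a median of 1.01. In control 3 of 10 were at day 2, beside 5.92% of all genes. At day 3 it was 1 of 8, near the 8.76% of all genes. In control day 1 Hspa1a, an inducible chaperone gene without a UMI in control naive, was at least 84.0-fold higher. Hspb1 had a ratio of 5.86 (3.96 to 11.75) there and Dnajb1 of 2.70 (2.34 to 3.11). Hspa1a was at 155 CPM in control day 1 and at no more than 5.56 CPM in any other library. Atf3 and Hspa1a were thus both high in that library alone. The medians of these lists stay the same with Egr2 and Hspa1a at their bounds. In A20 cKO days 1, 2 and 3 against naive none of 10 heat shock genes was 2-fold away, beside 1.39% to 2.86% of all genes in either direction. The part of early-response and heat shock genes in the AP-1 levels was not tested. These lists were also left out of the CPM total, together with mitochondrial and ribosomal protein genes. All 22 counts of members at least 2-fold away then stayed within 1.5 times the reported count.

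**Figure D5:**
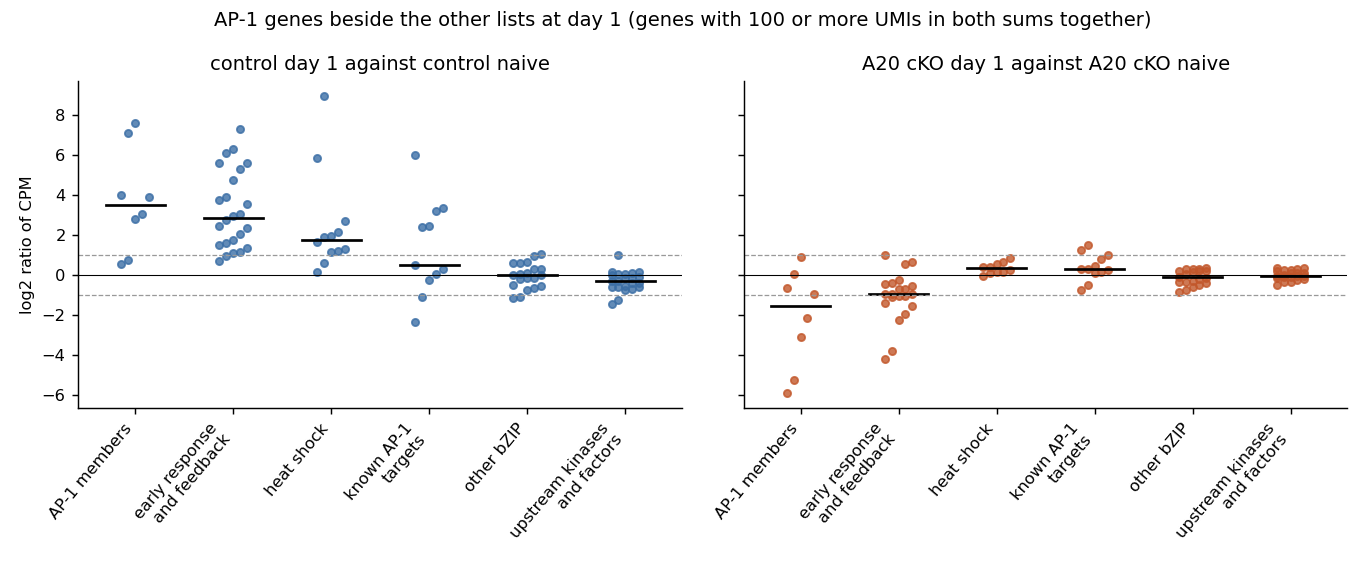
Log2 ratio of CPM at day 1 against the naive library of the same genotype for the genes of 6 lists, 1 point a gene with at least 100 UMIs over both sums together, with medians as black lines and dashed lines at 2-fold. The medians of the AP-1 members are 3.49 in control and -1.54 in A20 cKO, and those of the upstream kinases and factors are -0.30 and -0.03.

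Genes known as AP-1 targets in other settings did not all follow. Of 11 tested in control day 1, 5 were at least 2-fold higher and 2 lower, beside 3.82% and 7.25% of all genes. The chemokine Ccl2 led at 6.03 (5.28 to 7.04), followed by the chemokine Ccl3 at 3.35 and the cytokine Tnf at 3.22. In A20 cKO day 1, where Fos and Jun were low, 3 of 12 were at least 2-fold higher and none lower, beside 1.56% and 1.39% of all genes. These were Ccl2 at 1.48 (1.39 to 1.58), Plaur at 1.23 and Ccl4 at 1.02. Ccl2 was at 201 CPM in A20 cKO naive and at 562, 477 and 576 CPM at days 1, 2 and 3. Among other basic leucine zipper genes, 1 of 20 was at least 2-fold higher in control day 1, the stress factor Atf4 at 1.04, and 2 were lower, Maf at -1.16 and Bach2 at -1.09, shares near the 3.82% and 7.25% of all genes. In A20 cKO none of 20 was 2-fold away at day 1, 2 or 3, beside 1.39% to 2.86% of all genes in either direction. In A20 cKO naive against control naive 2 of 20 were higher, beside 7.43% of all genes, the AP-1 repressor Jdp2 at 2.49 (1.12 to 5.01) and Cebpb, a macrophage zipper factor, at 1.36 (1.20 to 1.52). Both had like levels in control day 3, where Jdp2 was at 12.2 and Cebpb at 605 CPM, against 12.1 and 571 CPM in A20 cKO naive. In the 3 control libraries of the other set Jdp2 was at 1.77 to 2.13 CPM and Cebpb at 223 to 439 CPM, so both genes followed the sets of libraries.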

How the data were processed

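UMI counts of each gene in each cell, deposited by the authors without normalization, were used for all 8 libraries. Per the submitters' processing notes the authors used Cell Ranger 2.1.1 and mm10. The kit is v3.1 in the labels and v3 in the study's methods. The study removed doublets by gating during the sort, and no doublet caller was run here. Cells with at least 1000 UMIs, at least 500 genes and at most 10% mitochondrial UMIs were kept. UMIs were summed per library and scaled to CPM, with exact Poisson intervals. Log2 ratios had 0.5 UMIs added to each sum, with exact conditional intervals, and a gene was tested with at least 100 UMIs over both sums together and called at 2-fold. Shares had Clopper-Pearson intervals, after thinning to 2000 UMIs without replacement. All intervals are at 95%. With 1 library per group no test was run. A count of 0 was given the limit of 3 counts, and a fold against it is a lower bound. Likeness was sought among genes averaging 20 CPM or more, and correlations genes in at least 5% of thinned cells. All 10 members were named, and from each other list up to 3 genes with the largest ratios. Members and lists were chosen with earlier results of these data known. Of the 23 other zipper genes 22 and of the 24 kinases and factors 23 were in the files under 1 symbol, and the rest were not analysed here. Coordinates are from GENCODE M21 and RefSeq on GRCm38. Alternatives were other cell filters, depths, totals and count minimums, and the removal of cells with shared barcodes. Scripts used Python 3.11.15, numpy 2.4.6, scipy 1.17.1, pandas 2.3.3 and matplotlib 3.10.9, and were tested on simulated data.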

Additional observations from a re-analysis of the deposited data

Results flagged for a closer look

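Changes after injury went in opposite directions in the genotypes for several AP-1 genes. At day 1 the log2 ratio to naive in control exceeded that in A20 cKO by 12.88 for Fos, 13.03 for Fosb, 7.03 for Jun and 5.21 for Jund. At day 2 it did so by 7.75 for Fos and 6.78 for Fosb. Every value is a difference between single libraries, and none of these differences was tested. Handling of the cells before capture cannot be told apart from time or genotype in them. The naive libraries that serve as references belonged to different sets by shared barcodes, so set and genotype cannot be told apart. The change within A20 cKO lay inside 1 set, as did those from naive to days 1 and 2 in control.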

How the results depend on the processing

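Of 176 counts of members at least 2-fold away, recomputed under 8 alternatives, 167 were within 1.5 times the reported count. Among 687 log2 ratios recomputed, none of a member past 2-fold changed sign, and 16 moved by over 1.5 times, all of Fos or Fosb in ratios with A20 cKO day 1 or day 2. Lowering the minimum to 20 UMIs over both sums together brought in Maff, so that 1 member was higher in A20 cKO day 1 and 1 in day 2 against A20 cKO naive, 1 in A20 cKO day 2 against control day 2 and 2 in A20 cKO day 3 against control day 3. At that minimum Maff also joined the higher members in control day 1 against naive, at 1.33 from 76 and 3 UMIs. It did so too in A20 cKO naive against control naive, at 1.04 from 39 and 3 UMIs. In A20 cKO day 1 against control day 1 the count of higher members went from 1 to 0 with the mean of cell CPM, relative to the median gene and without shared barcodes. In A20 cKO day 3 against control day 3 it went from 1 to 0 with the stricter cell filter and without shared barcodes. The shift furthest from its reported value was that of Fosb in A20 cKO day 1 against A20 cKO naive, at -7.78 with the stricter filter, from 5 UMIs. Leaving the 10 members out of the CPM total, an alternative chosen after seeing the data, changed 1 count, with Atf3 as a 7th lower member in A20 cKO day 2 against A20 cKO naive. Shares of cells moved with depth, in 61 of 80 cases without thinning and 56 of 80 at 1000 UMIs, while another draw moved 3 of 80. No paired analysis was possible because each group had 1 library, so no replicate numbers paired samples. A genotype effect over the 4 times taken as pairs was not fitted. Depth limits Fosl1, Maff, Fosl2 and Batf, and no value here covers variation between animals or preparations.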
